A study of Mus musculus with 47 samples.

Results

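In hippocampal area CA1 and in the auditory cortex (AC), NPY-positive neurons were compared cell by cell and gene by gene. The CA1 cells are N1, N2X and N6, which are all 3 CA1 cells among the 47 cells of the series. The AC cells are N3X, N4, N41, N42, N43, N44, N46, N5, N7 and N8, 10 of the 20 AC columns, each with a deep neuronal library. A further deep AC library, N45, lies outside the rule. The comparison therefore rests on 13 cells. Column N4X was left out because it repeats N4: the chi-square of their counts was 2.02 per degree of freedom, against 85.8 or more in 252 other pairs. The rule names the cells by column.

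All cells came from NPY-hrGFP mice, which the series text calls NPY-EGFP, a strain in which a green fluorescent protein marks cells that express neuropeptide Y. No cell carried a deletion or a treatment, and the mice were 3 to 8 weeks old in both groups. The cytosol of each neuron was drawn into the patch pipette after recording, its mRNA was amplified, and reads were counted per gene. AC cells lay in the superficial layers of coronal slices. Hippocampal slices were horizontal, so the plane of the slice goes with the region, and the layer of the CA1 cells is not given in the sources used here. The series used 8 mice and names none for any cell, so all cells of a region count together as a single sample. A test of CA1 against AC was therefore not possible, no p-value was computed, and every SD describes the spread of cells only.

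Neurogliaform cells are GABAergic interneurons of the upper cortical layers and of the hippocampal layers that receive distal inputs. Their dense axons release GABA in a cloud that reaches many neighbours, and many of them also release neuropeptide Y. Cortical interneurons arise from the medial and the caudal ganglionic eminence (MGE and CGE). Lhx6 and Nkx2-1 are transcription factors of the MGE lineage and Prox1 and Nr2f2 of the CGE lineage. Many neurogliaform cells of the neocortex come from the CGE, and those of the hippocampus can stem from either source.

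Levels are given as CPM, which scales the reads of a gene to a total of 1000000 in each cell. Differences are the mean log2(CPM + 1) of the 3 CA1 cells minus that of the 10 AC cells. A difference of 2 or more on this scale was taken as large, and a gene was called separated where every CA1 cell lay on one side of every AC cell. A gene was compared where 3 or more of the 13 cells held a read, which left 8515 genes. Of these, 1716 (20.2%) were 2 or more higher in CA1 and 1043 (12.2%) were 2 or more higher in AC, and the median difference was 0.34.

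The CA1 libraries were shallower, with 601781 reads in N1, 3202430 in N2X and 1230347 in N6, against 1715012 to 6265431 in the AC cells. N1 and N6 had fewer reads than any AC cell. In these libraries, 4367, 4949 and 6095 genes were detected in the CA1 cells (5137 ± 879, mean ± SD, n = 3 cells), and 3163 to 6288 in the AC cells (4758 ± 1058, n = 10 cells). The difference of these means, 379, was -99.6 without N6, and the difference of the medians was -58.5. With every cell thinned to 601000 reads these means were 4924 ± 832 and 4338 ± 1037, a difference smaller than the SD over cells. Some libraries stood apart. In N2X the genes of the mitochondrial genome took 0.039% of the reads, against 1.08% in N1, 1.27% in N6 and 0.252% to 1.52% in AC. The ribosomal RNA gene Rn18s-rs5 ranged from 3837 to 116096 CPM over the AC cells and from 30008 to 68907 CPM over the CA1 cells.

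All 3 CA1 cells carried the marker genes of the cells compared. Gad1, which encodes the main enzyme of GABA synthesis, had 8254, 6936 and 9501 CPM in N1, N2X and N6, and 740 to 13467 CPM in AC with a median of 7873. Kit, a receptor tyrosine kinase of cortical neurogliaform cells, had 5643, 2516 and 2828 CPM in CA1, and 571 to 3214 CPM in AC with a median of 2054. N1 lay above all AC cells for Kit and the other 2 CA1 cells lay inside their range. Reln, which encodes the secreted protein reelin, had 4874, 842 and 479 CPM in CA1, and 0 to 2730 CPM in AC with a median of 1409. Npy itself had 1356, 1435 and 2242 CPM in CA1, and 1174 to 10566 CPM in AC with a median of 2722. The regions overlapped for all 4 markers, and the differences were 0.36 for Gad1, 1.00 for Kit, 1.14 for Reln and -1.03 for Npy. With 1 cell left out, that of Reln was 0.13 without N42, 0.16 without N1 and 1.84 without N6, that of Gad1 was 0.01 without N7 and that of Kit was 0.64 without N1.

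In the summed reads of each region Npy made 1623 CPM in CA1 (exact Poisson 95% interval 1588 to 1658) and 5576 CPM in AC (5551 to 5601). For Kit the summed values were 2966 CPM (2919 to 3014) in CA1 and 2014 CPM (1999 to 2029) in AC. Amplified reads are not independent molecules, so these intervals, and all others given here for summed reads, cover counting error only. They do not cover the spread of cells, which was wider.

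Over the whole table the CA1 and AC cells resembled each other about as much as cells within a region did. The median Spearman correlation over the compared genes was 0.231 in the 30 CA1 to AC pairs, 0.227 in the 45 pairs within AC and 0.245 in the 3 pairs within CA1, as a description over cells that share no library. Among 390 genes with reads in all 13 cells the median difference was 0.12, and 7 of them were 2 or more higher in CA1 and 10 in AC.

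Genes that mark neurogliaform cells and interneurons in general were at like levels in both regions. Of 15 neurogliaform markers 14 were compared, with a median difference of 0.55 that was 0.11 without N1, 0.14 without N42, 0.34 without N46 and 0.37 without N4. Of these, 1 was 2 or more higher in CA1 and 2 were 2 or more higher in AC, against 20.2% and 12.2% of all compared genes. The count in CA1 was 0 without N6 and 2 without N2X. Lamp5, a membrane protein of vesicles in neurogliaform cells, had 2202, 791 and 1252 CPM in CA1 and 324 to 2802 CPM in AC with a median of 997. Gad2, the second enzyme of GABA synthesis, had 2318, 2435 and 1888 CPM in CA1 and 1134 to 4281 CPM in AC with a median of 1943. Both genes overlapped between the regions. Id2, a transcriptional regulator of CGE interneurons, and Nxph1, a secreted ligand of neurexins, differed by 0.04 and 0.66, and were chosen here after their values were seen. That of Id2 ran from -0.39 without N6 to 0.43 without N2X, and that of Nxph1 was -0.31 without N42 and 1.22 without N1, so that single cells set both directions.

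**Figure D1:**
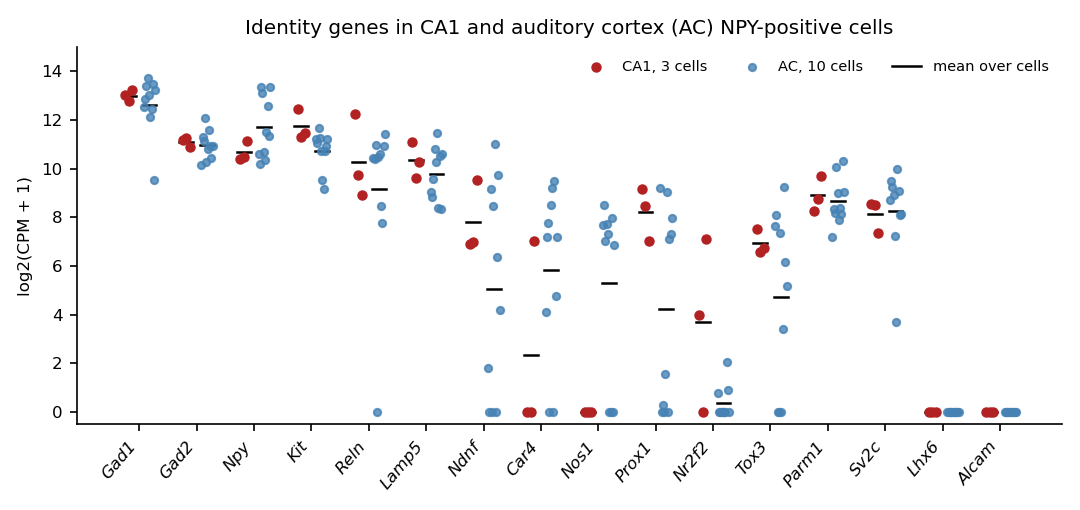
Level of identity genes as log2(CPM + 1) in each of the 3 CA1 cells (red) and 10 AC cells (blue), with black lines at the mean over cells. Gad1, Npy, Kit, Lamp5 and Parm1 overlap between the regions, Nos1 is at 0 in all 3 CA1 cells, and Lhx6 and Alcam are at 0 in all 13 cells.

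The exceptions in this list were Nos1, Car4 and Ndnf. Nos1, the neuronal nitric oxide synthase, had no read in any CA1 cell and 0 to 366 CPM in AC with a median of 144. Reads on Nos1 were present in 7 of 10 AC cells, and its mean level was 5.31 ± 3.70 (SD, n = 10 cells) in AC. In summed reads Nos1 was at least 224-fold higher in AC, with CA1 set at 3 reads over the region. This fold, and those below given as at least a value, cover counting error only and set no lower bound on a difference between the regions. With 0 of 3 cells the share of CA1 cells with a read still has an exact Clopper-Pearson 95% upper bound of 70.8%, and the AC interval is 34.8% to 93.3%. These intervals describe the sampling of cells taken as independent draws, which cannot be checked since no mouse is named, and compare no regions.

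Car4, a carbonic anhydrase, had 0, 0 and 129 CPM in CA1 and 0 to 721 CPM in AC with a median of 144. Its difference was -3.48, and it was -5.83 without N6 and -2.31 without N1. Ndnf, a secreted factor that marks interneurons of cortical layer 1, had 120, 127 and 749 CPM in CA1 and 0 to 2047 CPM in AC with a median of 49.1. All 3 CA1 cells held Ndnf reads, against 7 of 10 AC cells, for a difference of 2.75. This difference was 1.89 without N6, and it turned to -0.40 on summed CPM, where the single AC cell N44 weighs most.

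The CA1 cells lacked the MGE factor Lhx6. It had no read in any of the 13 cells, which in summed reads allows up to 0.596 CPM in CA1 and 0.0881 CPM in AC by the limit of 3 reads. Nkx2-1 was also at 0 in all 13 cells. Of the 21 labelled CA3 cells, 7 are shallow libraries of 111958 to 408585 reads with no read on Gad1, Kit, Npy or Reln, so values for CA3 are given over the other 14 unless stated. In these 14 CA3 cells Lhx6 had reads in 13 and Nkx2-1 in 6. Alcam, a cell adhesion molecule, had reads in all 14 and in none of the 13 cells compared here. The CA1 and AC cells also shared Parm1, a membrane protein, at 306, 434 and 829 CPM in CA1 and 146 to 1289 CPM in AC with a median of 327, where 1 of 14 CA3 cells had a read.

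More genes were examined with earlier results on AC against CA3 cells known, and CA3 values are given here for Sv2c only. Sv2c, a synaptic vesicle protein, had 376, 360 and 163 CPM in CA1 and 12.1 to 1002 CPM in AC with a median of 449, and reads in 1 of 14 CA3 cells. Cpne7, a calcium-dependent membrane-binding protein, had 33.2, 339 and 144 CPM in CA1 and 0 to 919 CPM in AC with a median of 606. Col25a1 and Igfbp4 had no read in any of the 13 cells. Rnpepl1, an aminopeptidase-like protein, had a lower mean level in CA1, with 0, 0 and 4.88 CPM in CA1 and 0 to 635 CPM in AC with a median of 195. Cntnap4, a presynaptic adhesion protein of interneurons, went the other way, with 517, 0 and 8.13 CPM in CA1 and no read in AC.

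Among 10 CGE lineage genes 7 were compared, with a median difference of -0.02. This median ran from -1.27 without N1 to 2.34 without N2X, so it was set by single CA1 cells. Prox1, a homeobox factor of CGE interneurons, had 580, 351 and 131 CPM in CA1 and 0 to 592 CPM in AC with a median of 70.2, for a difference of 3.98. Reads on Prox1 were present in 3 of 3 CA1, 7 of 10 AC and 2 of 14 CA3 cells. Nr2f2, an orphan nuclear receptor of the CGE, had 15, 0 and 137 CPM in CA1 and at most 3.17 CPM in AC. Its difference was 3.32, and it was 1.62 without N6 and 5.17 without N2X. Nfix, a nuclear factor I protein, had a difference of -1.30 that was -0.09 without N2X and -2.10 without N6, with 174, 17.8 and 302 CPM in CA1 and 57.0 to 660 CPM in AC with a median of 245.

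Among genes of the MGE lineage, Tox3, an HMG-box factor, had 181, 94.0 and 105 CPM in CA1 and 0 to 611 CPM in AC with a median of 52.4. Its difference was 2.23, and it was 1.94 without N1 and 1.71 without N41, N42 or N44. Tox2, a factor of the same family, had 286, 109 and 624 CPM in CA1 and 19.1 to 1590 CPM in AC with a median of 374, for a difference of -0.32 that was -0.92 without N6, -0.77 without N7, -0.07 without N44, -0.21 without N8 and 0.33 without N2X. Both genes overlapped between the regions. Sox6 and Satb1, like Lhx6 and Nkx2-1, had no read in CA1, and in AC Sox6 had at most 13.4 CPM and Satb1 at most 0.583 CPM.

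Telencephalic transcription factors showed the most large differences among the identity lists. Of 26 genes 14 were compared, with a median of 2.02, and 7 (50%) were 2 or more higher in CA1 and 1 (7.14%) in AC, against 20.2% and 12.2% of all genes. The median was -0.02 without N1, 4 members were 2 or more higher in CA1 without N6, and 2 were so in AC without N1 or N42. Under alternatives other than leaving out 1 cell, the median ran from 0.71 to 3.16. The count in CA1 then ran from 1 to 8 and that in AC from 1 to 3, with 9 to 20 members compared. Zeb2, a zinc finger factor needed for interneuron migration, had 342, 888 and 258 CPM in CA1 and 0 to 436 CPM in AC with a median of 16.1, for a difference of 4.71. Foxp1, a forkhead factor, had 249, 3.43 and 52.8 CPM in CA1 and 0 to 140 CPM in AC with a median of 0.13, for a difference of 3.05 that was 1.71 without N1 and 4.62 without N2X. Rora, a nuclear receptor, was the member higher in AC: it had no read in CA1 and reads in 8 of 10 AC cells, up to 1010 CPM with a median of 285. In summed reads Rora was at least 512-fold higher in AC.

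Over the 13 cells, separated genes were higher in CA1. Of the 8515 genes, 40 (0.47%) were 2 or more higher in CA1 with every CA1 cell above every AC cell, and 0 (0.0%) were 2 or more higher in AC with every CA1 cell below. Separation in the AC direction asks for a read in all 10 AC cells and in the CA1 direction for a read in all 3 CA1 cells, so these counts differ in what they ask. Of the 40 genes, 6 had no AC read at all, and so passed the filter on low values through CA1 alone, and 16 had reads in at most 3 AC cells. Their differences ran from 2.44 to 7.53. The count in CA1 was 124 without N1, 117 without N2X and 130 without N6, and it was 38 with all cells thinned to the same depth. That in AC was 1, 3 and 12 without the same 3 cells, 1 without N42 or N46 and 2 without N7.

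Ppp6r3, a regulatory subunit of protein phosphatase 6, had the largest difference, at 7.53. It lies on the GRCm38 build at chr19:3454928-3575749. It had 543, 244 and 202 CPM in CA1, and in AC reads in 2 of 10 cells, of which N5 had 109 CPM. Its mean level was 8.23 ± 0.76 (SD, n = 3 cells) in CA1 and 0.70 ± 2.14 (n = 10 cells) in AC. Cog2, a subunit of the Golgi tethering complex at chr8:124520767-124552008, had 96.4, 273 and 134 CPM in CA1 and no read in AC. In summed reads Cog2 was at least 2476-fold higher in CA1, with AC set at 3 reads over the region. Orc2, a subunit of the origin recognition complex, had 64.8, 22.8 and 191 CPM in CA1 and no read in AC.

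Several of the 12 largest had reads in some AC cells at lower levels. Lrrc8b, a subunit of volume-regulated anion channels, had 520, 1014 and 437 CPM in CA1 and reads in 4 of 10 AC cells, up to 285 CPM. Nrip3, a nuclear receptor interacting protein, had 558, 473 and 821 CPM in CA1 and up to 332 CPM in AC. Syt16, a member of the synaptotagmin family, had 369, 289 and 148 CPM in CA1 and up to 118 CPM in AC. Sel1l, an adaptor of degradation at the endoplasmic reticulum, had 264, 283 and 407 CPM in CA1 and up to 140 CPM in AC. The remaining ones were Tmco1, a calcium leak channel of the endoplasmic reticulum, Gmppb, an enzyme of mannose activation, Dpf2, a chromatin remodelling subunit, Ddx41, a helicase, and Tbc1d23, a trafficking adaptor of the Golgi, with differences from 5.89 to 6.78. Over all 21 labelled CA3 cells the 12 genes had reads in some cells, from 4 for Orc2 to 17 for Sel1l.

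**Figure D2:**
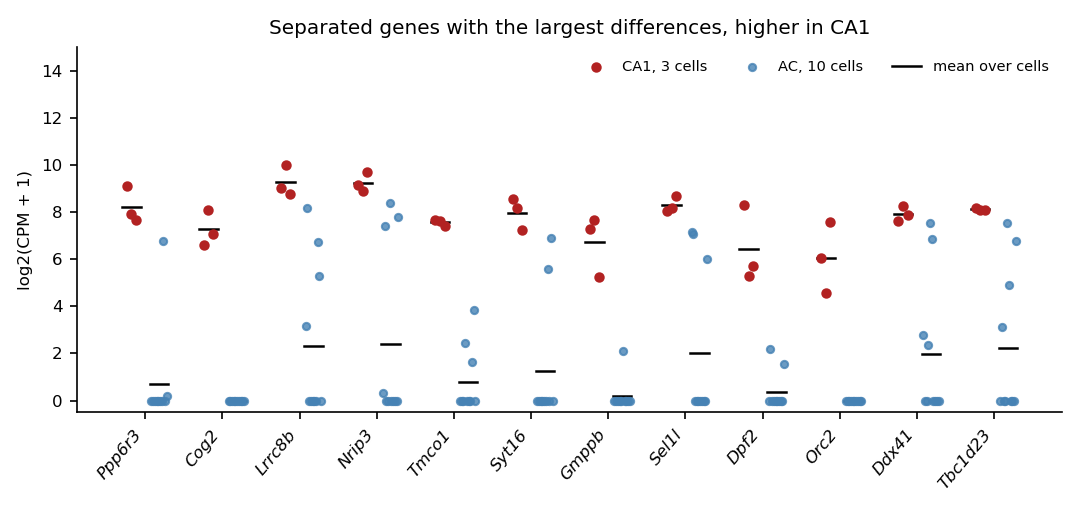
Level as log2(CPM + 1) of the 12 separated genes with the largest differences in 3 CA1 cells (red) and 10 AC cells (blue), with black lines at the mean over cells. Every red point lies above every blue point of its gene, and Cog2 and Orc2 are at 0 in all AC cells.

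Some separated genes were read in most AC cells too, and these are named after their values were seen. Tspan3, a tetraspanin, had 1250, 1504 and 1475 CPM in CA1 and 0 to 1220 CPM in AC with a median of 444. Its difference was 2.44, and 1.55 without N46, the AC cell at 0. Sptbn4, the spectrin of axon initial segments, had 289, 378 and 115 CPM in CA1 and 0 to 104 CPM in AC with a median of 23.2. Sod1, the cytosolic superoxide dismutase, had 271, 176 and 234 CPM in CA1 and 0 to 162 CPM in AC with a median of 92.8. Fgf13, an intracellular partner of sodium channels, had 1359, 952 and 910 CPM in CA1 and 0 to 906 CPM in AC with a median of 446. The gap between the lowest CA1 cell and the highest AC cell was small in Fgf13 and wide in Cog2. Ndufa8, a subunit of respiratory complex I, had 160, 231 and 269 CPM in CA1 and 0 to 119 CPM in AC with a median of 16.1.

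In the AC direction, genes with no CA1 read and reads in most AC cells were counted. Reads in at least 8 of 10 AC cells and none in CA1 were found in 12 genes, and in at least 9 AC cells in 1 gene, Ppp1cc, a catalytic subunit of protein phosphatase 1. Ppp1cc had 0 to 194 CPM in AC with a median of 63.0. Fam174a, a membrane protein of unknown role, had up to 616 CPM in AC with a median of 185, Zfp281, a zinc finger factor, up to 547 CPM with a median of 189, and Sp3, a factor of the Sp family, up to 463 CPM with a median of 203. Each of these 3 had reads in 8 of 10 AC cells. All 4 genes are named after their values were seen.

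Most immediate early genes had a lower mean level in CA1. These genes are transcribed within minutes of synaptic activity, injury or stress, and many encode transcription factors. In the sum of the list N1 and N6 were low and N2X was not, though N2X had no read on Jun or Homer1. Of 20 genes on the list 15 were compared. Of these 0 were 2 or more higher in CA1 and 8 (53.3%) were 2 or more higher in AC, against 20.2% and 12.2% of all genes, with a median difference of -3.15, and 14 of 15 differences were below 0. Summed over the list, N1 had 1068 CPM, N2X 7622 CPM and N6 868 CPM, and the AC cells 1819 to 22373 CPM with a median of 6401. N1 and N6 lay below every AC cell, and N2X lay inside the AC range. The median was -4.10 without N2X and -1.79 without N6, and the count of members 2 or more higher in AC was 7 to 9 with any one cell left out.

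Fos and Junb, which encode subunits of the AP-1 factor, were read in all 13 cells. Fos had 495, 851 and 519 CPM in CA1 and 823 to 4299 CPM in AC with a median of 1280, so that only N2X reached the lowest AC cell. Its summed level was 727 CPM (704 to 751) in CA1 and 1995 CPM (1980 to 2010) in AC. Junb had 292, 914 and 168 CPM in CA1 and 279 to 3228 CPM in AC with a median of 766. Jun, their partner, had 0, 0 and 1.63 CPM in CA1 and 0 to 3717 CPM in AC with a median of 125. Fosb had 0, 6.87 and 0 CPM in CA1 and 0 to 195 CPM in AC with a median of 71.5. Jun differed by -5.59 and Fosb by -3.74. Fos, Junb, Nr4a1, Dusp1 and Btg2 are named after their values were seen.

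Egr1 and Egr4, zinc finger factors, had their highest CA1 level in N2X. Egr1 had 236, 3894 and 0.813 CPM in CA1 and 568 to 4851 CPM in AC with a median of 1563. N1 and N6 were below every AC cell and N2X was near the top of the AC range. The difference for Egr1 was -3.57, and it was -6.09 without N2X and -0.56 without N6. On summed CPM it turned to 0.29. Egr4 had 0, 399 and 0 CPM in CA1 and 0 to 2358 CPM in AC with a median of 392. Its difference of -3.71 was -6.60 without N2X and -2.27 without N1.

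Nr4a1, Dusp1 and Btg2 also had their highest CA1 level in N2X, and Homer1 did not. Nr4a1, an orphan nuclear receptor, had 0, 148 and 0 CPM in CA1 and 0 to 407 CPM in AC with a median of 219, and its difference of -3.55 was -5.96 without N2X and -2.35 without N1. Dusp1, a phosphatase of MAP kinases, had 0, 719 and 132 CPM in CA1 and 0 to 2395 CPM in AC with a median of 890. The difference for Dusp1 was -3.27, and it was -0.51 without N1 and -5.26 without N2X. Btg2, an antiproliferative factor, had 0, 72.1 and 0 CPM in CA1 and 0 to 783 CPM in AC with a median of 211, with a difference of -3.15 that was -5.21 without N2X. Homer1, a scaffold of the postsynaptic density with an activity-induced short form, had 0, 0 and 0.813 CPM in CA1 and 0 to 298 CPM in AC with a median of 59.2. Ier2 was the 1 member with a difference above 0 (0.78), which was 0.01 without N2X and 1.36 without N3X and turned to -1.64 on summed CPM. It had 43.2, 226 and 46.3 CPM in CA1 and 0 to 1688 CPM in AC with a median of 300.

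**Figure D3:**
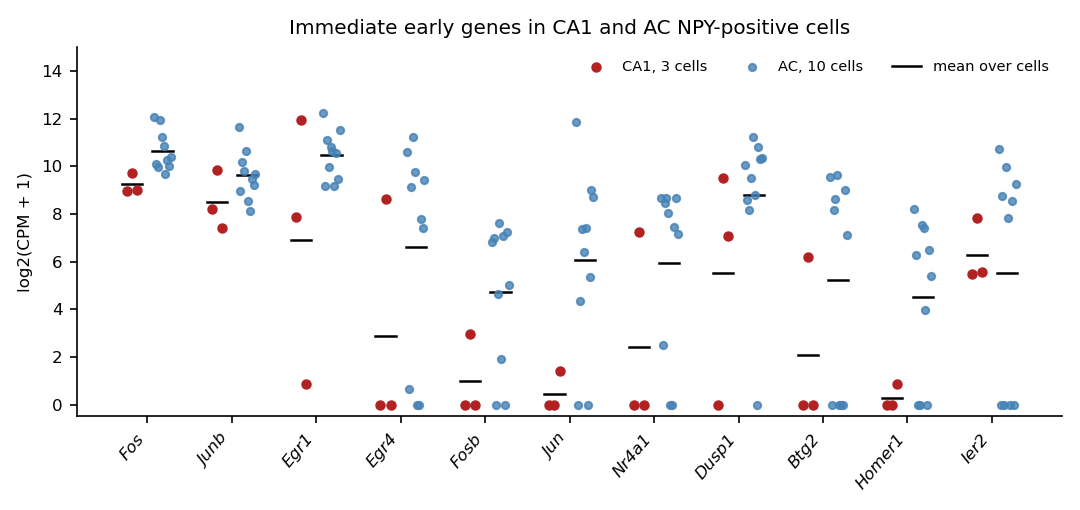
Level of immediate early genes as log2(CPM + 1) in 3 CA1 cells (red) and 10 AC cells (blue), with black lines at the mean over cells. The CA1 mean lies below the AC mean for every gene drawn except Ier2, and for Egr1 the CA1 cell N2X lies within the AC range while N1 and N6 lie below it.

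Values that moved with this list are given beside it. N1 and N6 were also the 2 shallowest of the 13 cells, and N2X was the CA1 cell with 0.039% mitochondrial reads. With all cells thinned to 601000 reads, 8 members were again 2 or more higher in AC and 0 in CA1, and on summed CPM these counts were 7 and 0. With all labelled AC cells they were 4 and 2, and the median difference was -1.04. The plane of the slices and the region cannot be told apart, and the part of depth or of the mouse in this result was not tested.

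The promoters of these genes are known for cAMP response elements, which the factor CREB binds, and for serum response elements. They are shown because, of the lists with 10 or more compared members, this one held the largest share of members 2 or more higher in AC. RefSeq windows from 250 bases before to 50 bases after a start were matched for 15 of the 20 genes. These are not the same 15 as those compared: Arc, Egr1, Egr3 and Ier2 were compared and are not among them, and Egr2, Fosl2, Ier5 and Nr4a2 are among them and were not compared. The core of the cAMP element, TGACG on either strand, was present in 12 of these 15 genes, against 23% of 27025 genes, and in 14 of their 20 windows, against 20.8% of 32851 windows. The full palindrome TGACGTCA, which contains that core, was present in 2 of 15 genes, against 2.03% of all genes. The CArG box of serum response elements was present in 1 of 15 genes, against 1.81% of all genes, and that gene holds it in 4 of the 20 windows of the list, against 1.63% of all windows. A match of letters says nothing of binding in these cells. The windows below are those of Fos, Fosb and Nr4a1 on GRCm38.p6, 5′ to 3′ on the strand of the gene, with the core in capitals on either strand. That of Fos is chr12:85473640-85473939 on the plus strand, with 2 matches. That of Fosb is chr7:19309996-19310295 on the minus strand, with 1 match. That of Nr4a1 is chr15:101266596-101266895 on the plus strand, with 4 matches.
Fos: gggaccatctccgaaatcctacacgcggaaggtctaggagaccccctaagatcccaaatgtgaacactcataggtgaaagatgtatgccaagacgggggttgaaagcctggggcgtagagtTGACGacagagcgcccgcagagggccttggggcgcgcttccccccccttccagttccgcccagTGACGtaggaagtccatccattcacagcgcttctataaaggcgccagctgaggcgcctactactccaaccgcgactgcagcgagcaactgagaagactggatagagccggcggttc
Fosb: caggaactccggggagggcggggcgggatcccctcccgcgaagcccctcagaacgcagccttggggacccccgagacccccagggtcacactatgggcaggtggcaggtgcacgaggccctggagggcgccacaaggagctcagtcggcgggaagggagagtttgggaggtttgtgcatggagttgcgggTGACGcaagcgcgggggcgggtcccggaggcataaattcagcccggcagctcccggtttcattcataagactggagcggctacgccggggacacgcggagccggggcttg
Nr4a1: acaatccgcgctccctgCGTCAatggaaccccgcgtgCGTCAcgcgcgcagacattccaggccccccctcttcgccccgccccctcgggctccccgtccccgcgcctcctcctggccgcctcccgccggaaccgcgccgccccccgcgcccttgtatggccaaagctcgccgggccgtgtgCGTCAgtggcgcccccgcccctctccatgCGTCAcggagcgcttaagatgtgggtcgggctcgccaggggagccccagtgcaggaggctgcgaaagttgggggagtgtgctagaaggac

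Glutamate receptor genes made short lists, whose counts stand beside 20.2% of all genes 2 or more higher in CA1 and 12.2% in AC. All 4 AMPA receptor subunit genes were compared, and 0 differed by 2 or more in either direction. Their median difference was 1.54, against 0.34 over all genes. With 1 cell left out, up to 2 were 2 or more higher in CA1 and up to 1 in AC, with both counts reached without N6. The median was 0.90 without N2X. Gria1 had 284, 294 and 483 CPM in CA1 and 0 to 419 CPM in AC with a median of 195. Gria2, the subunit that makes AMPA receptors impermeable to calcium, had 548, 2.19 and 441 CPM in CA1 and 0 to 1376 CPM in AC with a median of 560. The difference was 1.97 for Gria1 and -1.83 for Gria2, and the former was 1.26 without N44. That of Gria2 was 0.59 without N2X, the cell at 2.19 CPM, -3.12 without N1, -2.96 without N6 and -2.76 without N41. Of 7 NMDA subunit genes 6 were compared, and 1 was 2 or more higher in CA1: Grin3a, with 145, 515 and 0 CPM in CA1 and reads in 2 of 10 AC cells. Its difference of 4.26 was 2.45 without N2X and 6.96 without N6. Grik1, a kainate receptor subunit of interneurons, had 2328, 919 and 477 CPM in CA1 and 0 to 1141 CPM in AC with a median of 240. Its difference was 3.99, with reads in 3 of 3 and 7 of 10 cells.

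The auxiliary subunits of these receptors held 1 gene on each side among 10 compared, or 10% each, against 20.2% and 12.2% of all genes. Cnih2, a cornichon that slows the closing of AMPA receptors, had 332, 276 and 414 CPM in CA1 and 0 to 347 CPM in AC with a median of 128. Its difference was 2.44, and it was 1.78 without N3X and 1.95 without N46. Shisa9, an AMPA receptor protein also known as CKAMP44, had 0, 30.3 and 0 CPM in CA1 and 0 to 556 CPM in AC with a median of 129, for a difference of -3.44. In CA3, Cnih2 had reads in 14 of 14 cells and Shisa9 in 1 of 14.

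Among serotonin receptors 3 of 14 genes were compared and 1 was 2 or more higher in AC, against 12.2% of all genes. This was Htr2a, a receptor coupled to Gq, with 0, 0 and 0.813 CPM in CA1, a single read, and 0 to 426 CPM in AC with a median of 121. Reads on Htr2a were present in 7 of 10 AC cells and 2 of 14 CA3 cells, and its difference was -4.38. Htr3a, the ionotropic receptor found in many CGE interneurons, had no read in any of the 13 cells. Htr1a had 334 CPM in N2X, no read in the other 2 CA1 cells and at most 0.583 CPM in AC, and was named after its values were seen.

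**Figure D4:**
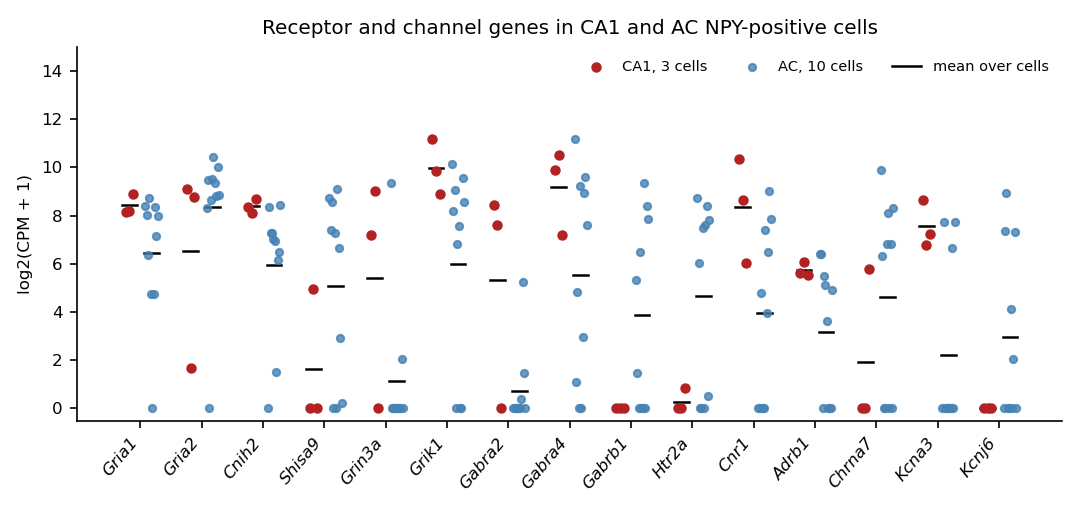
Level of receptor and channel genes as log2(CPM + 1) in 3 CA1 cells (red) and 10 AC cells (blue), with black lines at the mean over cells. CA1 means are higher for Cnih2, Grik1, Gabra4, Cnr1, Adrb1 and Kcna3 and lower for Shisa9, Gabrb1, Htr2a and Kcnj6, and single cells at 0 occur in both regions.

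GABA receptor genes as a list lay near the background. Of 19 genes 12 were compared, and 3 (25%) were 2 or more higher in CA1 and 2 (16.7%) in AC, against 20.2% and 12.2% of all genes. The count in AC was 1 without N3X. Gabra4, an alpha subunit often found outside synapses, had 964, 1449 and 147 CPM in CA1 and 0 to 2356 CPM in AC with a median of 110. Gabrb2, a beta subunit, had 636, 240 and 571 CPM in CA1 and 0 to 825 CPM in AC with a median of 203. Gabra2, an alpha subunit, had 344, 196 and 0 CPM in CA1 and reads in 3 of 10 AC cells, up to 37 CPM, for a difference of 4.64 that was 3.10 without N1 and 7.31 without N6. Gabrb1, another beta subunit, had no read in CA1 and 0 to 648 CPM in AC with a median of 20.6. Gabrb1 was thus read in 6 of 10 AC cells. In summed reads, with CA1 set at 3 reads, it was at least 239-fold higher in AC, a value that does not cover the spread of cells.

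Among other receptors Cnr1, the cannabinoid receptor of presynaptic terminals, had 1313, 399 and 65 CPM in CA1 and 0 to 525 CPM in AC with a median of 20.5. Its difference was 4.40, with reads in 3 of 3 CA1, 6 of 10 AC and 3 of 14 CA3 cells. Adrb1, a beta adrenergic receptor, had 48.2, 65.9 and 45.5 CPM in CA1 and 0 to 84.1 CPM in AC with a median of 20.2. Chrna7, a nicotinic receptor subunit, had 0, 0 and 54.5 CPM in CA1 and 0 to 941 CPM in AC with a median of 95.3. The difference for Chrna7 was -2.70, and it was -1.73 without N1 and -4.63 without N6. Cck, a peptide found in Cnr1-bearing basket cells, had 116, 266 and 0 CPM in CA1 and reads in 3 of 10 AC cells, up to 308 CPM. Sst, Pvalb and Vip, which mark the other large interneuron classes, had no read in any of the 13 cells. Of the receptors for neuropeptide Y, Npy2r and Npy5r had no read in the 13 cells, and Npy1r had at most 0.888 CPM in a single AC cell.

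Ion channel genes were spread over both sides. Of 54 potassium channel genes 35 were compared, and 10 were 2 or more higher in CA1 and 5 in AC, with a median of 0.63. These are 28.6% and 14.3% of the compared members, against 20.2% and 12.2% of all genes, so the share in AC was near the background. The count in AC was 9 without N6 and 3 without N8, and on summed CPM the split was 2 in CA1 and 11 in AC. Kcna3, a voltage-gated channel of the Kv1 family, had 402, 110 and 152 CPM in CA1 and reads in 3 of 10 AC cells, up to 212 CPM, for a difference of 5.36. Kcna6, of the same family, had 326, 14.1 and 164 CPM in CA1 and reads in 3 of 10 AC cells, for a difference of 4.49. Kcna1, also of the Kv1 family, was read in AC alone, in 5 of 10 cells, up to 101 CPM. Kcnj6, a potassium channel opened by G proteins, had no read in CA1 and 0 to 491 CPM in AC with a median of 1.59. Of 27 sodium, calcium and HCN channel genes 21 were compared. Of these 4 (19%) were 2 or more higher in CA1 and 1 (4.76%) in AC, against 20.2% and 12.2% of all genes. The member higher in AC was Cacna1a, the pore of P/Q-type calcium channels, with 1.66, 0.625 and 0 CPM in CA1 and 0 to 412 CPM in AC with a median of 60.8.

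Among the lists with 10 or more compared members, axon guidance genes held the largest share of members 2 or more higher in CA1. Of 38 genes 18 were compared, and 10 (55.6%) were 2 or more higher in CA1 and 2 (11.1%) in AC, against 20.2% and 12.2% of all genes, with a median of 2.25. Without N6 the median was 1.43 and 7 members were 2 or more higher in CA1, and on summed CPM the median was 0.13 and 5 members were. The count in AC was 1 without N1, N2X, N4 or N44. Efnb2, an ephrin ligand, had 84.7, 37.2 and 63.4 CPM in CA1 and reads in 3 of 10 AC cells, up to 54.1 CPM, for a difference of 4.59. Robo2, a receptor for Slit proteins, had 168, 361 and 560 CPM in CA1 and 0 to 1110 CPM in AC with a median of 36.9, for a difference of 3.91. Epha7, an ephrin receptor, had 204, 0 and 955 CPM in CA1 and a read in 1 of 10 AC cells. Its difference of 5.32 was 8.25 without N2X. Epha5, another ephrin receptor, was higher in AC, with 0, 12.2 and 0 CPM in CA1 and 0 to 177 CPM in AC with a median of 36.5.

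Cell adhesion and vesicle genes were nearer to the background of 20.2% in CA1 and 12.2% in AC. Of 49 adhesion genes 29 were compared, and 5 (17.2%) were 2 or more higher in CA1 and 2 (6.90%) in AC. Cadm1, a synaptic adhesion protein, had 1165, 398 and 367 CPM in CA1 and 0 to 752 CPM in AC with a median of 133. Ncam1, the neural cell adhesion molecule, had 0, 0 and 5.69 CPM in CA1 and 0 to 334 CPM in AC with a median of 25.9. Of 34 synaptic vesicle genes 27 were compared, and 4 (14.8%) were 2 or more higher in CA1 and 1 (3.70%) in AC. The count in CA1 was 7 without N2X and 2 without N7, and that in AC was 4 without N1 and 2 without N6. Rims2, a scaffold of the active zone, had 131, 226 and 37.4 CPM in CA1 and reads in 4 of 10 AC cells. Syt4, a synaptotagmin of dense-core vesicles, had 610, 594 and 82.9 CPM in CA1 and 0 to 486 CPM in AC with a median of 71.9. The difference was 4.21 for Rims2 and 3.85 for Syt4.

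Trophic factors and their receptors counted 13 compared genes of 24, with 5 members (38.5%) 2 or more higher in CA1 and 2 (15.4%) in AC, against 20.2% and 12.2% of all genes. The share in AC was near the background. The count in CA1 was 8 without N2X and that in AC was 1 without N5. Under alternatives other than leaving out 1 cell, these counts ran from 1 to 7 and from 0 to 3, with 8 to 18 members compared. Pdgfa, a platelet-derived growth factor, had 264, 114 and 53.6 CPM in CA1 and 0 to 104 CPM in AC with a median of 13.6. Ntrk2, the receptor of BDNF, had 701, 490 and 409 CPM in CA1 and 0 to 1772 CPM in AC with a median of 210, for a difference of 3.05 that turned to -0.20 on summed CPM. Kitl, the ligand of Kit, had no read in CA1 or in any CA3 cell and reads in 4 of 10 AC cells, up to 333 CPM. Igf1, an insulin-like growth factor, had no read in CA1 and 0 to 601 CPM in AC with a median of 7.21.

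**Figure D5:**
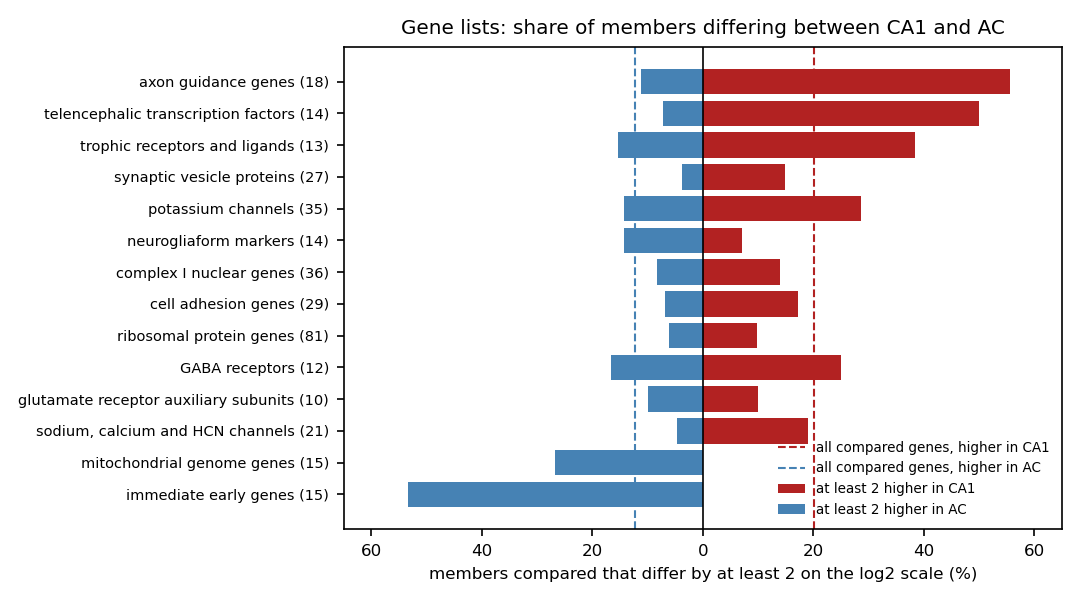
For each gene list with 10 or more compared members (number in brackets), the percent of members 2 or more higher in CA1 (red, to the right) or in AC (blue, to the left), with dashed lines at the shares over all compared genes, 20.2 and 12.2. Lists are ordered by their median difference, from immediate early genes at the bottom (8 of 15 higher in AC) to axon guidance genes at the top (10 of 18 higher in CA1).

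Nuclear genes of the ribosome and of complex I had medians near that of all genes, and genes of the mitochondrial genome did not. Of 84 ribosomal protein genes 81 were compared, with a median of 0.37, close to the 0.34 over all genes. Of these 8 (9.88%) were 2 or more higher in CA1 and 5 (6.17%) in AC, against 20.2% and 12.2% of all genes. Of 37 nuclear genes of complex I 36 were compared, with a median of 0.50. The 15 genes of the mitochondrial genome had a median of -0.62. Of these 0 were 2 or more higher in CA1 and 4 (26.7%) in AC, against 20.2% and 12.2% of all genes. Summed over these genes N1 had 10823 CPM and N6 12732 CPM, against 2518 to 15182 CPM in AC with a median of 4618. N2X had 391 CPM, the lowest of the 13 cells. For mt-Nd1 this cell had 0.312 CPM, against 1532 in N1 and 1847 in N6 and 382 to 2173 in AC, and the difference of -2.52 turned to 0.92 without N2X and was -4.31 without N6 and -4.18 without N1.

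Markers of other cells were present in both regions and differed between single cells. The 10 microglia markers summed to 452, 0 and 280 CPM in CA1 and to 0 to 5961 CPM in AC, with the top values in N42 (5961 CPM) and N46 (3598 CPM). Of 8 compared microglia genes 3 were 2 or more higher in AC and 0 in CA1, against 12.2% and 20.2% of all genes. This count was 1 without N42 or N46 and 5 without N6, N3X, N43, N7 or N8, and without N2X 3 members were 2 or more higher in CA1. The defining genes Aif1 and Csf1r had no read in CA1. The 13 astrocyte markers summed to 3834, 666 and 1138 CPM in CA1 and 641 to 8635 CPM in AC, the highest in N4, where the neurogliaform markers summed to 9032 CPM. Of 9 compared astrocyte genes 7 had a higher mean level in CA1, with a median difference of 0.83, and 1 was 2 or more higher there. This was Slc1a2, a glutamate transporter of astrocytes, with 284, 48.1 and 34.1 CPM in CA1 and 0 to 234 CPM in AC with a median of 8.62, for a difference of 3.00 that was 2.08 without N1 and 0.91 on summed CPM. Aqp4 had no read in any of the 13 cells, and Gfap had 588 CPM in N1 and no read in the other CA1 cells. The 10 oligodendrocyte markers summed to 354, 0 and 267 CPM in CA1 and 0 to 367 CPM in AC, with Mog at 0 throughout. In N1 Mobp had 354 CPM. Gfap and Mobp are named after their values were seen. The 11 pyramidal cell markers summed to 656, 0.625 and 51.2 CPM in CA1 and 9.38 to 862 CPM in AC. Slc17a7, the vesicular glutamate transporter of pyramidal cells, had no read in CA1. Their part in the results above was not tested, and the microglia list moved with the AC cells N42 and N46.

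Over all 8515 genes the count of large differences was itself uneven, with 1716 in CA1 and 1043 in AC, and 57.0% of genes had a higher mean level in CA1. On the ratio of summed CPM, in which N2X carries most CA1 reads, the split was 886 in CA1 against 2202 in AC and the median was -0.42. The direction of the balance over all genes therefore depends on how cells are averaged, and each list above is to be read against it.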

How the data were processed

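Reads were counted per gene in 47 single cells, of which 13 were compared. The deposited table holds raw counts, not normalized, for 22800 gene symbols, and 7613 of these were never read. The study's methods give Trimmomatic and Flexbar for trimming, STAR for alignment to GRCm38 and HTSeq for counting, while the submitters' processing notes name featureCounts as the counter. Tool versions are not given in the sources used here. Counts of Ensembl identifiers with the same symbol were averaged by the authors. Gene coordinates come from GENCODE vM21, by symbol, for 164 of 165 named genes (all but Rn18s-rs5), and promoter windows from RefSeq on GRCm38.p6.

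Counts were divided by the total of each cell and set on a log2(CPM + 1) scale. Since no mouse is named for any cell, each region was taken as 1 sample and no count model was fitted. Large differences were those of 2 or more. Intervals are exact Poisson for summed reads and exact Clopper-Pearson for shares of cells, at 95%, and the limit for a sum of 0 is 3 reads. Total counts per cell ran from 601781 to 6265431. Alternatives were the factors of edgeR 4.0.16 (TMM), DESeq2 1.42.0 (poscounts) and scran 1.30.0 in R 4.3.3, pseudocounts of 10 and 0.1, other filters on low counts, summed reads, the median over cells, other sets of AC cells, each cell left out, and thinning to 601000 reads with seed 1 (20 draws for detected genes). Leaving out N42 and N46, and totals without Rn18s-rs5, were added after the data were seen. The steps were tested on simulated data. The software was Python 3.11.15, pandas 2.3.3, numpy 2.4.6, matplotlib 3.10.9 and scipy 1.17.1.

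Genes were named where they were among the 12 largest separated differences in each direction, were markers of the cells, were named by the study, or were examples (at most 6) of a gene list, taken first by separation and then by size. Genes outside this rule are said to be so. A few genes under this rule are not reported here but still count in their lists. The cells, the lists and the genes were chosen with earlier results of these data known.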

Additional observations from a re-analysis of the deposited data

Results flagged for a closer look

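Within the 10 AC cells, 140 genes were checked for a cell that stands apart from the others by Dixon's criterion, and 21 had one, where chance flags about 1 in 20 groups of normally distributed values. Many of these genes are at 0 in several cells, so that rate does not hold for them: in Gmppb, Kcnk1, Cdh13 and Epha7, 9 of 10 cells were at 0 and any read in the other stands apart. Levels here are log2(CPM + 1). In 9 genes the cell stood apart at the top: Ppp6r3 in N5 at 6.79, Gmppb in N44 at 2.12, Nfia in N4 at 8.23, Nr2f2 in N5 at 2.06, Grin3a in N3X at 9.35, Gabra2 in N5 at 5.25, Kcnk1 in N7 at 7.81, Cdh13 in N42 at 0.33 and Epha7 in N4 at 5.45. In the others the cell stood apart at the bottom. The level was 0 for Reln and Nxph1 in N42, for Gria1 in N44, for Gria2, Nfib and Grin2a in N41, for Dusp1 and Tspan3 in N46 and for Ppp1cc in N7. It was low and above 0 for Gad1 in N7 at 9.53, Tox2 in N7 at 4.33 and Sv2c in N44 at 3.72. Of these genes, Ppp6r3, Gmppb and Tspan3 are separated between the regions. Groups of 3 cells, such as CA1, were not checked.

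A further AC library, N45, is deep, with 5265115 reads and 6209 genes, and lies outside the comparison. It held Lhx6 at 247 CPM, where the 13 cells compared held none, and no read on Kit or Reln.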

How the results depend on the processing

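No paired analysis was possible because the labels give the cells no shared replicate numbers, and the numbers used here only name cells. Of 3850 values of 140 named genes under the alternatives, 3800 moved by less than the larger of the CA1 and AC SDs over cells. That SD is wide where many cells are at 0, and the alternatives share most of their cells, so this count is a loose check. Of 98 named genes that differed by 2 or more, 87 kept their side in every alternative. The median difference over compared genes was -0.42 on summed CPM and 1.06 with all labelled AC cells, and it was 0.21 with DESeq2 factors and 0.17 with scran factors, against 0.34. Genes 2 or more higher in CA1 numbered 628 with a pseudocount of 10, 898 with reads in at least 7 cells, 886 on summed CPM and 3137 with all labelled AC cells. Those higher in AC numbered 220, 492, 2202 and 282 in the same order, and 1735 with a pseudocount of 0.1. Genes separated and higher in CA1 numbered 24 with reads in at least 7 cells and 24 with all labelled AC cells. Those separated and higher in AC numbered 1 with DESeq2 factors and 2 without N42 and N46. Detected genes differed by 1672 with all labelled AC cells, many of which are shallow. With 1 cell left out, the median difference ran from 0.03 to 0.51, genes higher in CA1 from 1626 to 2166 and in AC from 930 to 1681 (the highest without N6), separated genes from 44 to 130 in CA1 and from 0 to 12 in AC (the highest without N6), and the difference in detected genes from -99.6 (without N6) to 764. Fewer CA1 cells to lie on one side give more separated genes by construction. On summed CPM the differences of Ndnf (-0.40), Ntrk2 (-0.20) and Egr1 (0.29) turned, and of smaller ones those of Reln (-0.23), Gad1 (-0.08), Lamp5 (-0.15) and Ier2 (-1.64). With all labelled AC cells those of Cort (0.20) and mt-Nd1 (0.67) turned, and of smaller ones those of Npy (2.55), Fos (2.14), Junb (2.16), Tox2 (2.16), Gria2 (0.67), Nfix (0.91), Sv2c (2.37), Cpne7 (2.84) and Rn18s-rs5 (-0.27). With scran factors Gad1 (-0.05), Gad2 (-0.27) and Parm1 (-0.16) turned, with DESeq2 factors Gad2 (-0.13) and Parm1 (-0.02), with N45 added Sv2c (0.63) and Cpne7 (0.21), with a pseudocount of 0.1 Cpne7 (0.19) and with one of 10 Ier2 (-0.37). With the median over cells Reln (-0.74) and Ier2 (-2.62) turned, and mt-Nd1 also turned with the median over cells (0.76) and without N2X (0.92), and was -4.31 without N6. For these the cause was not tested. Depth limits what a level of 0 shows most in N1, the shallowest cell.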
